A study of Mus musculus with 12 samples.

Results

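Described here is a set of 46 genes out of the 284 in the hippocampus table, high in the same 2 of its 6 libraries, 1 from each group of mice. The members were chosen by their measured values: the lower of the libraries Ctrl 1 and Akk 2 had to be at least 0.5 FPKM and at least 2 times the highest of Ctrl 2, Ctrl 3, Akk 1 and Akk 3. FPKM count the fragments of a gene relative to its transcript length and to the size of the library. Where 3 values of a group are given, they are in the order of replicates 1, 2 and 3. Because this choice used the values, the high level in Ctrl 1 and Akk 2 is a description and was not tested.

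Ctrl 1, 2 and 3 are libraries of 3 control mice, and Akk 1, 2 and 3 are those of 3 mice in the *Akkermansia muciniphila* group, with blood of the same 6 mice measured as well, 12 libraries in all. All were C57BL/6 mice with an age of 15 months in the labels, and each hippocampus library held bulk tissue of 1 mouse. The Ctrl mice were labelled normal, and the study describes *A. muciniphila*, a mucin-degrading gut bacterium, as the treatment of the other group, whereas the labels name a membrane protein of that bacterium given for 8 weeks in one field and for 6 weeks in another. The methods of the study say that RNA was taken from mice in which colonization by the bacterium did not succeed. They also describe antibiotics before gavage with the bacterium or with vehicle, and mice of both sexes. The methods do not say whether this holds for each sequenced mouse.

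The choroid plexus is a sheet of secretory epithelium in the brain ventricles. It makes cerebrospinal fluid by moving ions and water from blood, carries folate and hormones across, and secretes transthyretin, the thyroxine carrier for which the tissue is best known. Tight junctions between its cells form the barrier between blood and cerebrospinal fluid, and the plexus of the lateral ventricle lies along the hippocampus.

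The name given to the set was checked against marker genes. Of 30 listed genes of the choroid plexus epithelium, 22 were in the table and 21 of these were members, the exception being Cdh3, an adhesion cadherin. The list was written with earlier results of these data known, and the table holds selected genes, so this count describes the set and is no independent evidence. The defining genes Ttr, Enpp2 and Prlr were all members and were above 0 in all 6 libraries. None of the 25 listed motile cilia genes, 23 meningeal and stromal fibroblast genes, 12 endothelial and mural cell genes, 7 hypothalamus genes, 10 hippocampal neuron genes and 6 red blood cell genes was in the table, so their levels in these libraries are not analysed here. In bulk samples, fewer cells of a type and less RNA per cell cannot be told apart.

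Promoter stretches of 5 members are shown because the set includes the homeobox factor Otx2, and because the stretches hold letters searched for in the whole set. The search covered both strands of windows from 250 bases before to 50 bases after each start site, from RefSeq on GRCm38.p6, and 35 of the 46 genes had such a window, 48 windows in all. The letters were TAATCC, the core bound by Otx-type homeodomains, GTTGCC, part of the X-box bound by RFX factors, GTAAACA, a forkhead sequence, and CCAAT and TATAAA. Below are the 250 bases before the start, 5′ to 3′ on the strand of the gene, with capitals marking TAATCC or GTTGCC, or the same letters read on the opposite strand. In the first 3 the capitals are GTTGCC, and in the last 2 they are TAATCC.
Kcne2 (chr16:92292139-92292388, + strand): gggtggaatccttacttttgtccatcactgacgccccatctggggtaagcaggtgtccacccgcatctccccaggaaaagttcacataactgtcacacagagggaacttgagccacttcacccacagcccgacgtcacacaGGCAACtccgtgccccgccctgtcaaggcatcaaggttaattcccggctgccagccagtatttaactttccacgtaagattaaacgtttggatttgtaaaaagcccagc
Aqp1 (chr6:55336049-55336298, + strand): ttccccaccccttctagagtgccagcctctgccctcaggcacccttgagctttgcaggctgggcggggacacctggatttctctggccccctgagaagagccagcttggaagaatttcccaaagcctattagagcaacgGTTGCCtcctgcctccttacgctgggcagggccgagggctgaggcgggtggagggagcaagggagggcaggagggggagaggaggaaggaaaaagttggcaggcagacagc
Otx2 (chr14:48667645-48667894, - strand): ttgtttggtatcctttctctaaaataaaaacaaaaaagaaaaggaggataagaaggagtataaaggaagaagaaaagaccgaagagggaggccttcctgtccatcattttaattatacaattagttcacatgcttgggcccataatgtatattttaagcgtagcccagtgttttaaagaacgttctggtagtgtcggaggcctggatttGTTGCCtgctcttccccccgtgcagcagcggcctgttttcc
Mfrp (chr9:44101520-44101769, + strand): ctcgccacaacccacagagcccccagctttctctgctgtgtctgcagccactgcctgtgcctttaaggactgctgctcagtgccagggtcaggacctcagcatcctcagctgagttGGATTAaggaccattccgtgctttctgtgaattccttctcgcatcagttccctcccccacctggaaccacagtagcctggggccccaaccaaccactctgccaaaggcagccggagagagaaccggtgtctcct
Ace (chr11:105967698-105967947, + strand): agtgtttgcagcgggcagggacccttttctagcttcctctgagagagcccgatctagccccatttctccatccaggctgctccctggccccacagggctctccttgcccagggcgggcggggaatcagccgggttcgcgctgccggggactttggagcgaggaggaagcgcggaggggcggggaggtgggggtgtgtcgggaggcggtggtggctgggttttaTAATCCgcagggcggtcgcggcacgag

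TAATCC was found in 8 of the 48 member windows (16.7%), against 9.1% of 264 windows of all genes in the table and 7.1% of the 32851 mouse windows. The genes were Abca4, Ace, Gm7429, Mfrp, Otx2, Pla2g5, Rbm47 and Steap2. GTTGCC was in 14.6% of member windows, 13.3% of table windows and 12.5% of all windows. CCAAT was in 27.1% of member windows and 37.4% of all windows, TATAAA in 14.6% and 13.6%, and GTAAACA in 2.1% and 3.6%. In the Ace window, TAATCC overlapped 1 match to TATAAA on the opposite strand. A match of letters is a description and does not show that a factor binds there.

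The 46 genes lay on 17 chromosomes, 8 of them on chromosome 5, and all were mRNA genes. Within 500 kb of each other were Steap2 and Steap1 on chromosome 5, 41.7 kb apart with 0 coding genes between them, and Kcne2 and Clic6 on chromosome 16, further apart and with 5 coding genes between them. The set was therefore not drawn from one part of the genome.

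**Figure D1:**
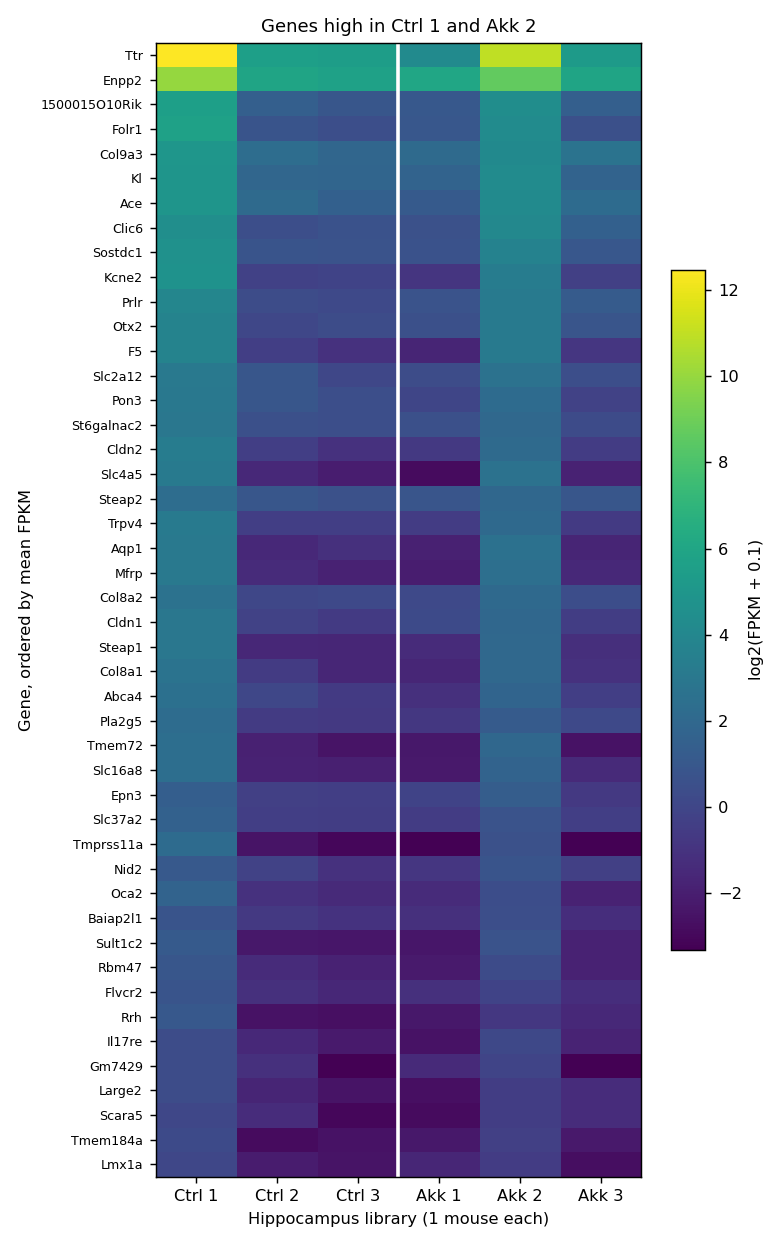
Heat map of the 46 genes (rows, ordered by mean FPKM) in the 6 hippocampus libraries (columns, 1 mouse each), with colour for log2(FPKM + 0.1) and a white line between the Ctrl and Akk groups. The Ctrl 1 and Akk 2 columns are the bright ones by the rule of selection, and Ctrl 1 is the brighter of them for all 46 genes.

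Among the secreted proteins, Ttr, which encodes transthyretin, was the most abundant member. Its FPKM in Ctrl 1, 2 and 3 was 5709, 49.05 and 44.0, and in Akk 1, 2 and 3 it was 18.6, 2033 and 39.3. The lower of the high libraries was thus 41.4 times the highest of the other 4, the widest gap in the set, and the remaining libraries spread over 2.64-fold with Akk 1 lowest. Enpp2 encodes autotaxin, the secreted enzyme that makes lysophosphatidic acid. It stood at 1024, 59.9 and 52.7 FPKM in Ctrl 1, 2 and 3 and at 65.3, 418 and 60.2 in Akk 1, 2 and 3. Its gap was smaller, at 6.40-fold, and its level in the other 4 libraries was nearly even, with a 1.24-fold spread.

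Ttr and Enpp2 together made up most of the summed FPKM of the set. That sum was 7196 FPKM in Ctrl 1 and 2703 in Akk 2, and between 118 and 151 in the other 4 libraries. Without these genes it was 462 in Ctrl 1, 252 in Akk 2 and between 32.4 and 43.2 in the rest. The rule fixed this step in the summed level of the other 44 genes, so it is no separate result. The median FPKM of a member was 6.90 in Ctrl 1, 3.92 in Akk 2 and between 0.455 and 0.655 in the remaining libraries. For the 238 other genes of the table, the corresponding medians were 0.30 in Ctrl 1, 0.28 in Akk 2 and between 0.14 and 0.22.

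The gene labelled 1500015O10Rik, called Ecrg4 in RefSeq, encodes a secreted peptide precursor. Its levels were 48.7, 2.70 and 1.79 FPKM in the 3 Ctrl libraries and 1.90, 21.2 and 2.66 in the 3 Akk libraries. Sostdc1, a secreted antagonist of BMP and Wnt signalling, had 25.7, 1.62 and 1.52 FPKM in the 3 Ctrl libraries and 1.45, 12.5 and 1.88 in the 3 Akk libraries. These genes were alike in their gap, 7.87-fold and 6.65-fold over the highest other library. F5 encodes coagulation factor V, and its FPKM was 13.3, 0.65 and 0.37 in Ctrl 1, 2 and 3 and 0.21, 8.60 and 0.46 in Akk 1, 2 and 3. Its gap of 13.2-fold was larger, and Akk 1 held its lowest value. Pon3, a lactonase of the paraoxonase family, had 7.79, 1.75 and 1.31 FPKM in the 3 Ctrl libraries and 0.89, 4.56 and 0.78 in the 3 Akk libraries, a gap of 2.61-fold.

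Of the receptors and surface proteins, the prolactin receptor gene Prlr had 15.3, 1.16 and 1.00 FPKM in Ctrl 1, 2 and 3 and 1.53, 8.55 and 2.18 in Akk 1, 2 and 3. Leaving Akk 2 aside, Akk 3 and Akk 1 were above Ctrl 2 and Ctrl 3 for this gene. Akk 3 was also the library in which prolactin itself, Prl, was listed at 2258 FPKM, against 0.63 to 5.49 in the other 5. Prl is a pituitary hormone gene and no member of the set. The other pituitary genes of the table, Gh and Pomc, were highest in Akk 3 too, at 3.06 and 1.74 FPKM. Whether these levels are linked to the Prlr value in Akk 3 was not tested.

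Folr1 encodes folate receptor alpha, which takes folate across the choroid epithelium. Its values were 52.3, 1.65 and 1.27 FPKM in the 3 Ctrl libraries and 1.82, 19.3 and 1.34 in the 3 Akk libraries, a gap of 10.6-fold. Kl encodes klotho, a co-receptor for the hormone FGF23, and was at 30.7, 3.57 and 3.42 FPKM in the 3 Ctrl libraries and at 3.14, 19.8 and 3.20 in the 3 Akk libraries. Its other 4 libraries differed by 1.14-fold at most. Ace, the angiotensin-converting enzyme, reached 30.0, 4.25 and 2.72 FPKM in Ctrl 1, 2 and 3 and 2.09, 18.45 and 4.41 in Akk 1, 2 and 3. Outside Ctrl 1 and Akk 2, Folr1 thus lay between 1.27 and 1.82 FPKM, whereas Kl and Ace lay between 2.09 and 4.41.

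Mfrp encodes a frizzled-related membrane protein, and it had 8.35, 0.28 and 0.18 FPKM in the 3 Ctrl libraries and 0.14, 5.47 and 0.25 in the 3 Akk libraries, a gap of 19.5-fold. It overlaps C1qtnf5, which was in the table but outside the set, so reads of these genes may not have been separated. Steap1, a membrane protein of the metalloreductase family, was at 7.68, 0.24 and 0.22 FPKM in Ctrl 1, 2 and 3 and at 0.29, 4.00 and 0.33 in Akk 1, 2 and 3, a gap of 12.1-fold. Its neighbour Steap2, a metalloreductase for iron and copper, had 4.88, 1.79 and 1.39 FPKM in the 3 Ctrl libraries and 1.70, 3.86 and 1.74 in the 3 Akk libraries. The neighbours therefore differed in their level outside Ctrl 1 and Akk 2, and the gap of Steap2 was 2.16-fold. Tmem72, a multipass membrane protein, was at 5.14, 0.17 and 0.08 FPKM in the 3 Ctrl libraries and at 0.10, 3.73 and 0.07 in the 3 Akk libraries, a gap of 21.9-fold.

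All 8 members on the list of ion, water and solute transport showed gaps of 3.39-fold to 24.3-fold, with a median of 8.98-fold. The widest belonged to Slc4a5, a sodium bicarbonate cotransporter, with 9.17, 0.25 and 0.14 FPKM in the 3 Ctrl libraries and 0.04, 6.08 and 0.19 in the 3 Akk libraries. Aqp1, the water channel, was at 8.29, 0.26 and 0.35 FPKM in Ctrl 1, 2 and 3 and at 0.17, 5.76 and 0.21 in Akk 1, 2 and 3. For both genes Akk 1 was the lowest library, and the values outside Ctrl 1 and Akk 2 did not exceed 0.35 FPKM. Kcne2, an accessory subunit of potassium channels, had 26.4, 0.73 and 0.80 FPKM in the 3 Ctrl libraries and 0.45, 10.0 and 0.70 in the 3 Akk libraries, a gap of 12.5-fold. Clic6, of the chloride intracellular channel family, had 22.6, 1.31 and 1.51 FPKM in the 3 Ctrl libraries and 1.40, 16.7 and 2.72 in the 3 Akk libraries. Ctrl 1 thus exceeded Akk 2 by 2.64-fold for Kcne2 and by 1.35-fold for Clic6.

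The cation channel Trpv4, which responds to osmotic and mechanical stimuli, was at 8.72, 0.65 and 0.66 FPKM in the 3 Ctrl libraries and at 0.61, 4.11 and 0.55 in the 3 Akk libraries. The glucose transporter gene Slc2a12 had 8.41, 1.81 and 0.91 FPKM in the 3 Ctrl libraries and 1.16, 6.13 and 1.30 in the 3 Akk libraries. Slc16a8, a lactate transporter, was at 5.22, 0.18 and 0.16 FPKM in the 3 Ctrl libraries and at 0.11, 3.17 and 0.27 in the 3 Akk libraries. Of these genes Slc2a12 had the narrowest gap, 3.39-fold, and Slc16a8 the widest, 11.7-fold. Abca4, a lipid transporter known from photoreceptors, had 5.49, 0.92 and 0.54 FPKM in the 3 Ctrl libraries and 0.35, 3.28 and 0.66 in the 3 Akk libraries. The only listed transporter in the table that was not a member was the zinc transporter Slc39a4, at 3.24 FPKM in Ctrl 1 and 2.28 in Akk 2 against 1.43 in Akk 1, a gap of 1.59-fold.

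**Figure D2:**
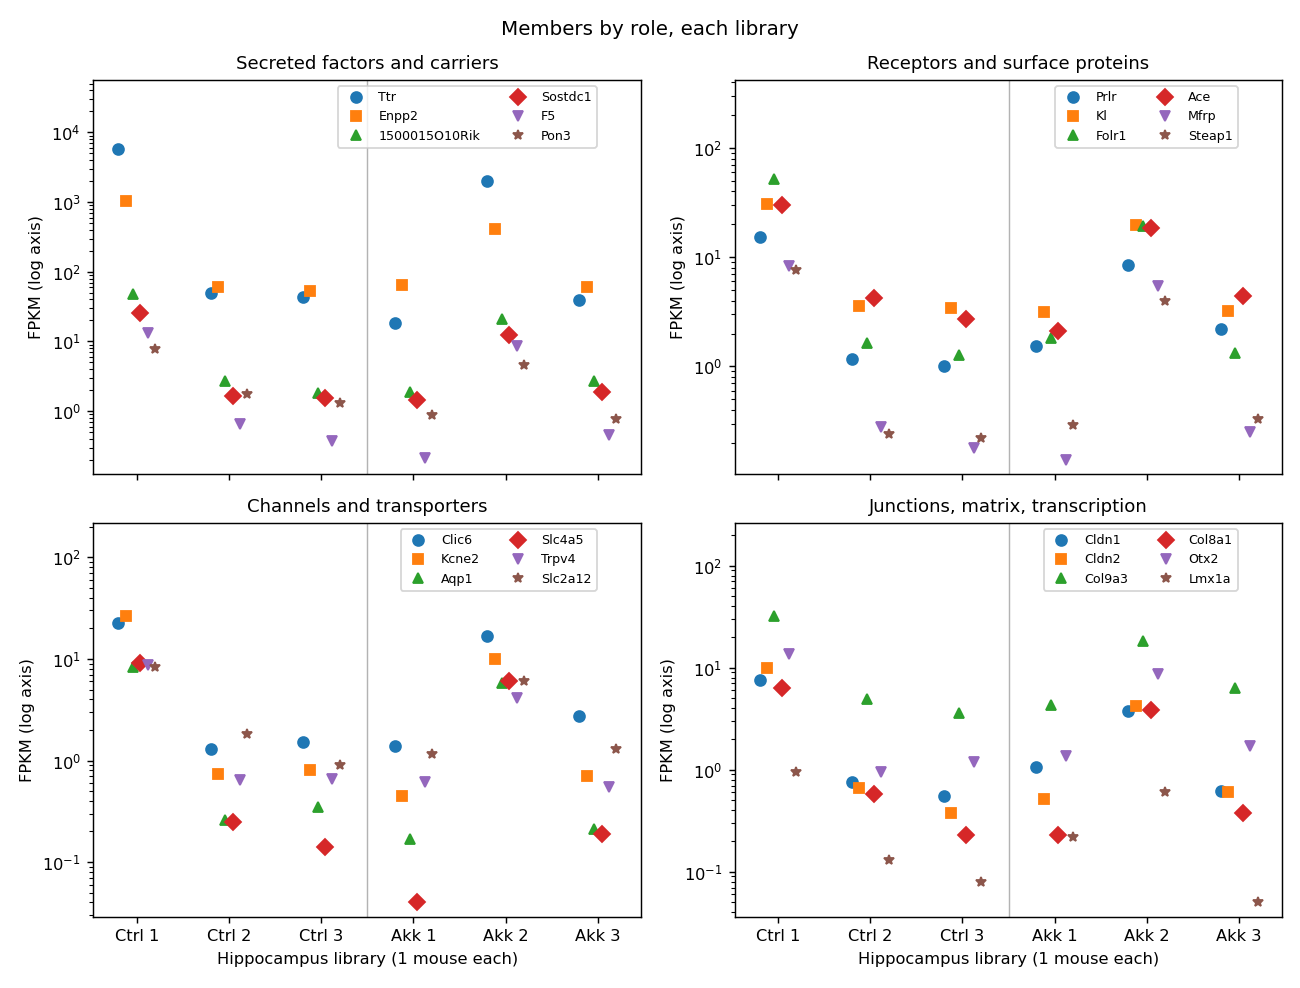
FPKM on a log axis for 24 members in each of the 6 hippocampus libraries (1 mouse each), in 4 panels by role, with 1 symbol per gene and small sideways offsets for legibility. Ctrl 1 and Akk 2 stand above the other libraries for every gene drawn, as the selection requires, and Ttr spans 18.6 to 5709 FPKM.

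Both claudin genes of the set encode tight junction proteins. Cldn2 was at 9.95, 0.66 and 0.38 FPKM in the 3 Ctrl libraries and at 0.52, 4.24 and 0.60 in the 3 Akk libraries. Cldn1 was at 7.51, 0.76 and 0.55 FPKM in Ctrl 1, 2 and 3 and at 1.07, 3.73 and 0.62 in Akk 1, 2 and 3. The gap was 6.42-fold for Cldn2 and 3.49-fold for Cldn1, whose highest value outside Ctrl 1 and Akk 2 was in Akk 1. Crb3 and Marveld3, listed junction genes outside the set, had gaps of 1.55-fold and 1.06-fold.

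Otx2, a homeobox transcription factor needed for choroid plexus formation, had 13.5, 0.94 and 1.20 FPKM in the 3 Ctrl libraries and 1.35, 8.61 and 1.71 in the 3 Akk libraries, a gap of 5.04-fold. Lmx1a, a LIM homeobox factor of the dorsal midline, was at 0.94, 0.13 and 0.08 FPKM in the 3 Ctrl libraries and at 0.22, 0.61 and 0.05 in the 3 Akk libraries. Elf5, the other listed factor in the table, was not a member and ranged from 0.26 to 0.69 FPKM, highest in Akk 3. Otx2 and Lmx1a differed widely in level, and the same libraries were high for both, as the rule required.

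All 3 table genes on the list of extracellular matrix genes were members. Col9a3, a chain of collagen IX, was at 31.8, 4.93 and 3.56 FPKM in the 3 Ctrl libraries and at 4.28, 18.2 and 6.36 in the 3 Akk libraries. Col8a1, a chain of collagen VIII, was at 6.29, 0.58 and 0.23 FPKM in the 3 Ctrl libraries and at 0.23, 3.88 and 0.38 in the 3 Akk libraries. Its partner chain Col8a2 was at 6.16, 0.92 and 1.01 FPKM in the 3 Ctrl libraries and at 1.01, 4.12 and 1.22 in the 3 Akk libraries. The collagen VIII chains had nearly equal FPKM in Ctrl 1 and Akk 2, and Col8a2 was the higher of them in all of the other 4 libraries.

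The remaining 18 members were on none of the lists, and their gaps ran from 2.00-fold to 17.4-fold with a median of 2.41-fold, against a median of 6.69-fold for the 21 choroid genes. The rule used the gap, and the lists were written with earlier results known, so this contrast is a description and no support for the name. The members on no list were lower as well, with a median of the mean FPKM of 0.72 against 3.94. The widest gap among them was that of Tmprss11a, a transmembrane serine protease, which was at 4.45, 0.08 and 0.02 FPKM in the 3 Ctrl libraries and at 0, 1.39 and 0 in the 3 Akk libraries. Being listed at 0 in Akk 1 and Akk 3, it is given no fold against these mice. St6galnac2, a sialyltransferase, had 7.64, 1.32 and 1.27 FPKM in the 3 Ctrl libraries and 1.36, 3.95 and 1.10 in the 3 Akk libraries, a gap of 2.90-fold.

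The endocytic adaptor Epn3, the interleukin-17 receptor family gene Il17re, the basement membrane protein gene Nid2 and the actin regulator Baiap2l1 had gaps between 2.16-fold and 3.69-fold and between 1.15 and 2.59 FPKM in Ctrl 1. The last 8 members, Pla2g5, Slc37a2, Oca2, Sult1c2, Rbm47, Flvcr2, Gm7429 and Tmem184a, were between 1.05 and 4.64 FPKM in Ctrl 1 and between 0.71 and 2.27 in Akk 2, with gaps of 2.25-fold to 8.56-fold. Gm7429 shares a near-identical sequence with 12 other genes, Rpl30 and its copies, so its reads cannot be assigned with certainty. Col9a3, Baiap2l1, Nid2, Slc2a12 and Steap1 overlap other coding genes that were not in the table, and the sources do not say that strand was used in counting.

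At the edge of the rule on fold, the last genes inside were Rrh, which encodes the opsin peropsin, and Large2, a glycosyltransferase, both with gaps of 2.00-fold, and Scara5, a ferritin receptor, at 2.06-fold. The first genes outside were Angptl2 at 1.96-fold, C1qtnf5 at 1.85-fold and Sema3b at 1.83-fold. At the edge of the rule on level, the lower of Ctrl 1 and Akk 2 was 0.50 FPKM for Rrh, 0.61 for Lmx1a and 0.62 for Large2, all inside, and 0.46 for Ceacam16, 0.43 for Olfr1507 and 0.42 for Cdh3, all outside. Cdh3 met the rule on fold, with 1.10 FPKM in Ctrl 1, 0.42 in Akk 2 and at most 0.05 elsewhere. The borders were therefore gradual, and 22 members lay at 5-fold or more and 11 at 10-fold or more.

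Igf2 and Igfbp2, a growth factor of the choroid plexus and meninges and its binding protein, were in the table and not in the set. Igf2 was at 55.5, 34.7 and 8.12 FPKM in the 3 Ctrl libraries and at 4.49, 37.0 and 34.2 in the 3 Akk libraries, so that Ctrl 2 and Akk 3 were about as high as Akk 2. Igfbp2 was highest in Ctrl 1, at 94.6 FPKM, and was 48.0 in Akk 2 against 32.4 in Akk 3, a gap of 1.48-fold. The melanocortin receptor gene Mc3r, also on that list, had its highest value in Akk 2, at 0.60 FPKM against 0.50 in Akk 3. Ccl12 and Adora3, the only table genes on the list for microglia and other immune cells, were lower in Akk 2 than in each of the other 5 libraries.

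The rule required both Ctrl 1 and Akk 2 to be high and did not fix which was higher. All 46 members were higher in Ctrl 1 than in Akk 2, whereas this held for 132 of the 238 other genes (55.5%). Among the 50 other genes with both libraries at 0.5 FPKM or more, as the rule asked of members, 36 were higher in Ctrl 1, with a median ratio of 1.32. Ctrl 1 exceeded Akk 2 by at least 1.5-fold for 32 of the 46 genes, while 44.4% of the 284 genes in the table met that fold. The ratio ran from 1.08 for Epn3 to 3.94 for Rrh with a median of 1.64, and on the log2(FPKM + 0.1) scale the median difference was 0.70. With 1 library each, these ratios compare 2 mice and have no replicate check. The table holds selected genes, and the part of that selection in these counts and ratios was not tested.

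The ratio was not the same for all members. After Rrh, which was at 1.97 FPKM in Ctrl 1 and 0.50 in Akk 2, the highest were Tmprss11a at 3.20, Ttr at 2.81, Folr1 at 2.71 and Kcne2 at 2.64. The lowest after Epn3 were Il17re at 1.20, Nid2 at 1.25, Steap2 at 1.26 and Baiap2l1 at 1.27. When the median of the other 4 libraries was first subtracted from both, the ratio of what remained ran from 1.11 to 4.54 with a median of 1.74. In the 11 members with gaps of 10-fold or more, where this subtraction matters least, the ratio of the remainders still ran from 1.39 for Tmem72 to 3.22 for Tmprss11a. The median ratio was 1.92 for the 10 carriers, secreted factors and receptors and 1.58 for the 8 transport genes.

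Members with shorter transcripts tended to have higher ratios. The 9 members with a longest transcript under 2000 bases had a median ratio of 2.05, from 1.37 to 2.81, and the 37 longer ones had a median of 1.59, from 1.08 to 3.94. Over the 46 genes, Spearman's rho of the ratio with length was -0.374 and Pearson's r of the logarithms was -0.311, and rho with GC content was -0.241. These values are across genes of the same libraries, which are not independent replicates, so no p is given. For 43 other genes with both libraries at 0.5 FPKM or more, rho with length was 0.098. The part of length, RNA quality or library preparation in the ratios was not tested.

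**Figure D3:**
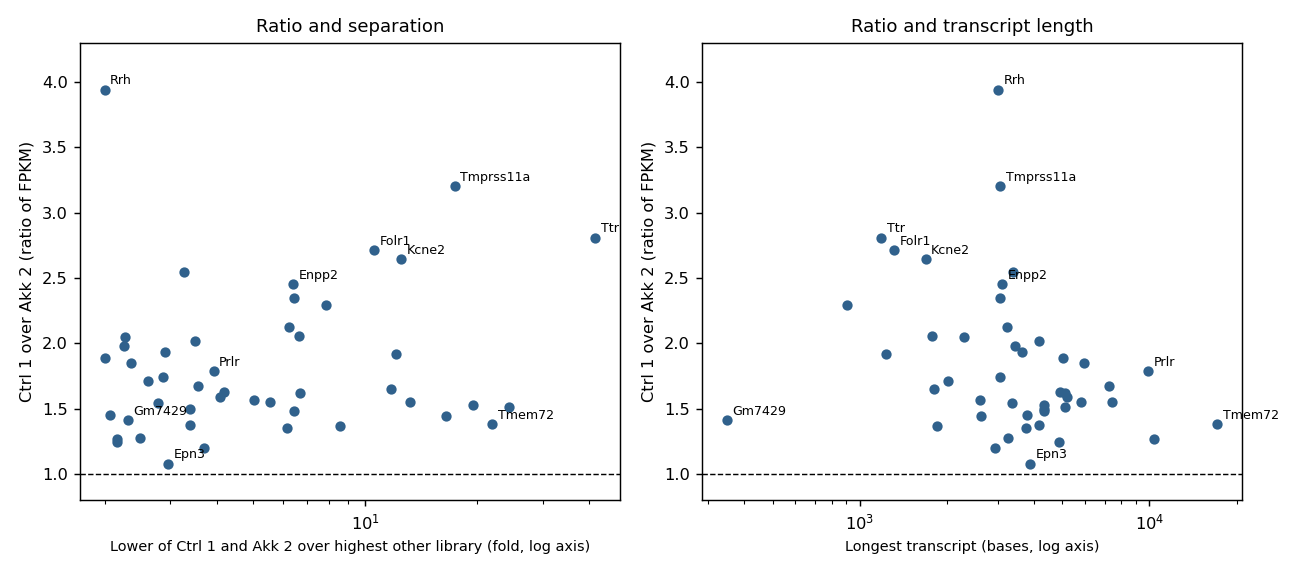
Ratio of FPKM in Ctrl 1 over Akk 2 for the 46 genes (1 point each) against their gap over the highest other library (left, log axis) and against the length of their longest transcript in bases (right, log axis), with a dashed line at a ratio of 1. All points lie above 1, from 1.08 for Epn3 to 3.94 for Rrh, and those under 2000 bases have a median of 2.05.

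Outside Ctrl 1 and Akk 2 the members did not share 1 order of libraries. The highest of the other 4 was Ctrl 2 for 21 members, Akk 3 for 15, Akk 1 for 7 and Ctrl 3 for 3, and the lowest was Akk 1 or Ctrl 3 for 17 members each, Akk 3 for 8 and Ctrl 2 for 4. The spread among these 4 libraries had a median of 2.00-fold over the 44 genes without a value of 0 there, from 1.12-fold for Slc37a2, a sugar phosphate exchanger, to 15.5-fold for Scara5. The median gap from the highest of them to the lower of Ctrl 1 and Akk 2 was 4.13-fold.

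In the comparison of Akk with Ctrl mice in the hippocampus, each group held 1 of the high libraries. By group means, Ttr was at 1934 ± 3269 FPKM in Ctrl and 697 ± 1157 in Akk (SD, n = 3 in each). Enpp2 was at 379 ± 559 FPKM in Ctrl and 181 ± 205 in Akk, and Prlr at 5.81 ± 8.20 in Ctrl and 4.09 ± 3.88 in Akk. The SD was larger than the mean in every case but Prlr in Akk, and the groups overlapped. The mean of all 46 members was lower in Akk than in Ctrl, by ratios of 0.305 to 0.944 with a median of 0.667. It was at least 1.5-fold lower for 23 of them, as for 33.5% of the 284 genes, and at least 1.5-fold higher for 0. Ctrl 1 exceeded Akk 2 for all 46 members, so these ratios of means rest largely on those single libraries.

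With limma on log2(FPKM + 0.1), a scale that shrinks differences between low values, 0 of the 46 members passed a fold change of 1.5 and an adjusted p of 0.05, and 0 had an unadjusted p under 0.05. In the table as a whole 3 of 284 genes passed both thresholds (1.06%), and 32 had an unadjusted p under 0.05. The rule placed 1 high library in each group, which by itself widens the spread within the groups. The counts and p-values of the members were therefore largely set by the selection and say little about the treatment. Adjusted p-values of the members ran from 0.936 to 1.00. The fitted log2 fold change, Akk minus Ctrl, was -1.02 with an SE of 2.90 for Ttr, -0.33 with an SE of 1.83 for Enpp2 and 0.20 with an SE of 1.27 for Prlr. It was negative for 41 members and positive for Clic6, Otx2, Prlr, Sult1c2 and Tmem184a, with a median of -0.30 against -0.11 for all genes. Of the 284 genes of the table, 170 had a negative value.

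The sign of these differences turned with the libraries in the fit. Without Ctrl 1 the median over the members was 0.85, and 45 of 46 genes were higher in Akk, Pon3 being the exception at -0.02. Without Akk 2 the median was -1.10, and all 46 were lower in Akk. Each of these fits kept 1 high library, in a single group. The rule therefore largely set their signs in advance, and they are no separate result. The median was also positive without Akk 1 (0.27, 36 genes higher) and without Akk 3 (0.07, 29 higher), with both high libraries in the fit. Over all 284 genes, members included, the median was 0.33 without Ctrl 1 and -0.32 without Akk 2. It was 0.13 without Akk 1 and 0.01 without Akk 3, so the turn in sign was shared with the table. Without both high libraries, an alternative chosen after the data were seen, the median was -0.01, with 23 genes lower and 23 higher. In that fit, the values ran from -0.79 for Pon3 to 0.71 for Prlr, and the smallest adjusted p of a member was 0.439. No member passed both thresholds in any of these limma fits. Ttr went from -1.02 to 1.30 without Ctrl 1 and to -3.09 without Akk 2, and Prlr from 0.20 to 1.43 and to -0.52.

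**Figure D4:**
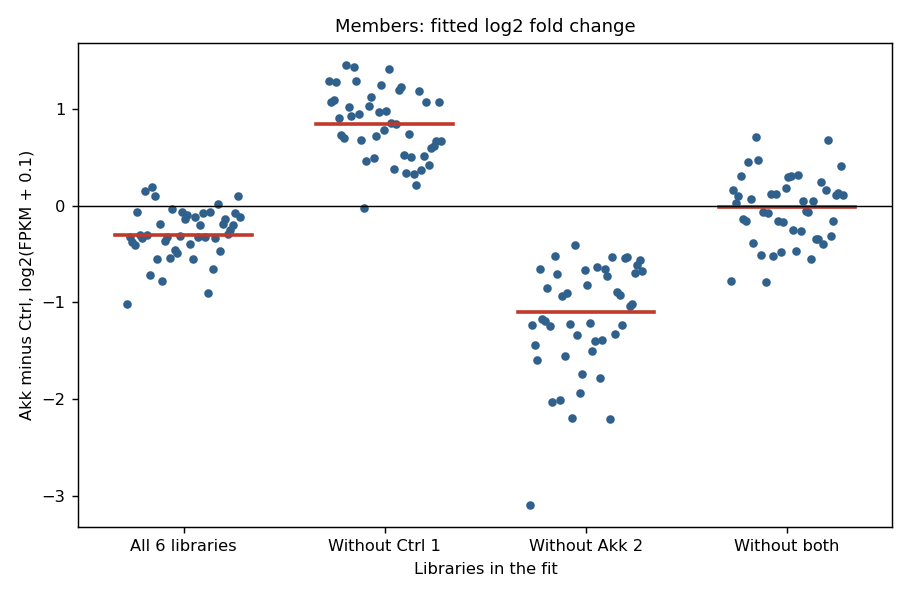
Fitted log2 fold change, Akk minus Ctrl on the log2(FPKM + 0.1) scale, of the 46 genes (1 point each) with all 6 libraries, without Ctrl 1, without Akk 2 and without both, with a red line at the median. The medians are -0.30, 0.85, -1.10 and -0.01. The opposite signs without Ctrl 1 and without Akk 2 were largely set by the rule, since 1 high library then remains.

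Blood of the same mice was not used to choose the members. Of the 46 genes, 6 were in the blood table, namely Ace, F5, Pon3, Rbm47, Cldn1 and Nid2, and Ttr, Enpp2 and Prlr were not. Blood F5 was at 71.3, 11.4 and 7.81 FPKM in Ctrl 1, 2 and 3 and at 7.06, 7.72 and 7.19 in Akk 1, 2 and 3. Blood Ace was at 16.0, 3.20 and 1.79 FPKM in the 3 Ctrl libraries and at 2.29, 0.84 and 1.47 in the 3 Akk libraries. For Rbm47, an RNA-binding protein gene, blood FPKM was 0.89, 0.03 and 0.10 in the 3 Ctrl libraries and 0.05, 0.12 and 0.06 in the 3 Akk libraries. Cldn1, Nid2 and Pon3 did not exceed 0.64 FPKM in any blood library.

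In blood, then, Ctrl 1 was the highest library for all 6 members and Akk 2 was not high. Ctrl 1 was also the highest for 98.2% of the 8003 blood genes, so its rank there is shared with nearly the whole table. Akk 2 had the lowest blood value of Ace among the 6 mice, and only for Rbm47 was it above each of Ctrl 2, Ctrl 3, Akk 1 and Akk 3, as for 2.6% of blood genes. None of the 6 met, in blood, the rule that defined the set in the hippocampus, which 1 of the 8003 genes did.

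With limma, 0 of the 6 passed both thresholds in blood and 0 had an unadjusted p under 0.05. Of the 8003 genes, 0% passed both thresholds and 276 had an unadjusted p under 0.05. The study itself reports 8003 differentially expressed blood genes at these thresholds, the number listed here. Its methods do not name the test behind that number, so the counts may come from unlike tests. The log2 fold change, Akk minus Ctrl, was -1.61 with an SE of 0.93 for Ace and -1.33 with an SE of 0.95 for F5, both with an adjusted p of 0.487. Without Ctrl 1 it was -0.71 for Ace and -0.36 for F5. With libraries centred on their median it was -0.70 for Ace and -0.42 for F5, and with quantile normalization -0.43 and -0.14. The median over the 6 was -0.72 against -0.87 for all blood genes.

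**Figure D5:**
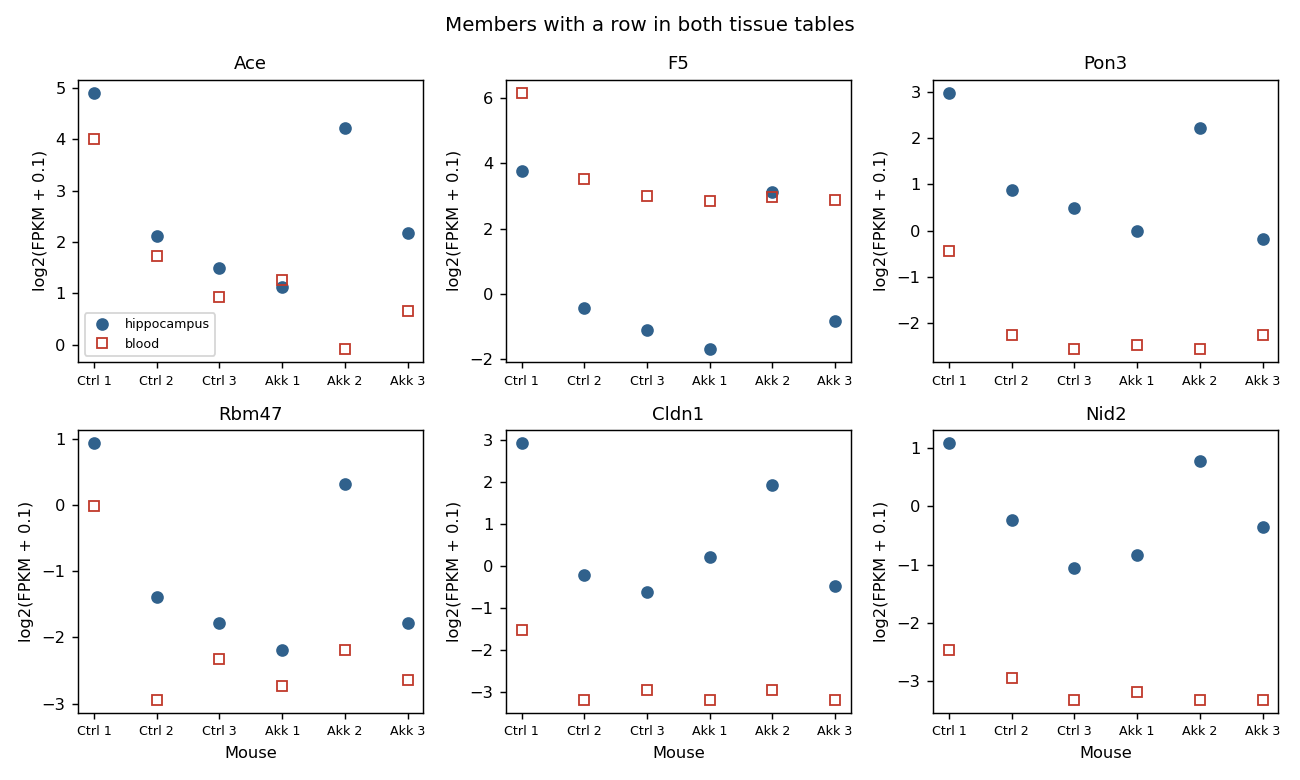
Levels of the 6 members found in both tissue tables, as log2(FPKM + 0.1) by mouse, with filled circles for hippocampus and open squares for blood. Akk 2 is high in hippocampus for each gene and not in blood, where Ctrl 1 alone stands up.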

How the data were processed

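RNA of hippocampus and blood from 3 Ctrl and 3 Akk mice was sequenced on the BGISEQ-500, 12 libraries in all. The authors cleaned the reads, and their methods name HISAT2 and Bowtie2 for mapping and RSEM for expression, whereas the submitters' processing notes list TopHat2, Cufflinks and GRCm38. The authors deposited FPKM for each tissue, rounded to 2 decimals, in tables of 284 hippocampal and 8003 blood genes. The tables hold selected genes, so the adjustment of p-values rests on these genes. The study reports 8003 differentially expressed genes in blood, so the blood genes appear to be chosen on the contrast of Akk with Ctrl. It also reports such genes for the hippocampus, in a number other than 284. How the 284 were chosen is not stated in the sources used here. Reads per library are not given in the sources used here. Depth is therefore unknown, and precision is limited by having 3 mice a group.

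Columns were assigned to mice by their labels, and the replicate number names different mice in the groups. The members, gene lists and motifs were chosen with earlier results of these data known. From the deposited FPKM, log2(FPKM + 0.1) was compared between groups by limma 3.58.1 (R 4.3.3), using an intensity trend, no scaling and Benjamini-Hochberg adjustment over the whole table. Calls used the thresholds of the study, an adjusted p up to 0.05 with a fold change of 1.5 or more. The fit was also run on simulated data with independent noise for each gene. Those data lack the shared step of the members, so that run says nothing about them. No test was made of Ctrl 1 and Akk 2 against the other libraries. The p-values set the group difference against the spread between single mice within a group. In the hippocampus the rule widened that spread for the members.

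Named are Ttr, Enpp2 and Prlr, members on a list, the 20 members with the highest mean FPKM, the 5 highest and 5 lowest ratios of Ctrl 1 over Akk 2, the 3 genes on each side of a threshold, members past the thresholds in a tissue, members with a mean blood FPKM of at least 1, and listed genes of the table outside the set, with all others in 1 sentence. Promoter windows, gene positions and overlaps came from RefSeq (GRCm38.p6) and transcript lengths and GC content from the longest GENCODE transcript. Near-identical transcripts (at least 95% identity over 50% of the length) were found by blastn 2.17.0. Tables and plots were made in Python 3.11.15 (matplotlib 3.10.9, scipy 1.17.1, numpy 2.4.6, pandas 2.3.3). Alternatives were other pseudocounts, a filter on low values, 2 scalings, no trend, a replicate block, each library left out, and other thresholds of the rule. Behaviour, qPCR and microbiota data were not analysed here.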

Additional observations from a re-analysis of the deposited data

How the results depend on the processing

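In the hippocampus and in blood, 0 members passed both thresholds of limma in each alternative run, including those that left out 1 library. In the hippocampus the rule put a high library in each group and so a wide spread within the groups, and this count says nothing about stability. An unadjusted p under 0.05 was found for 0 of 46 members in each hippocampus fit and, in blood, for 1 of 6 without the trend, 2 without Ctrl 3 and 0 in the others. Over all 8003 blood genes, 359 had such a p without the trend and 1610 without Ctrl 3. The replicate block gave 0 members past the thresholds in both tissues. Deviations of same-numbered mice from their group means had correlations of -0.284, -0.325 and 0.14 in the hippocampus and 0.036, -0.011 and -0.096 in blood. The hippocampal values include the members, which the rule made high in Ctrl 1 and Akk 2, so they cannot decide on pairing. The labels give separate animal numbers to the mice of the groups.

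The median log2 fold change of the members in the hippocampus (-0.30) was negative under the other pseudocounts, the filter and both scalings, from -0.40 to -0.20, while centring moved the median of all genes from -0.11 to -0.21. With single libraries left out it ran from -1.10 to 0.85, while the median of all genes ran from -0.32 to 0.33. The median of the members turned positive without Ctrl 1 (0.85), Akk 1 (0.27) or Akk 3 (0.07). Without both Ctrl 1 and Akk 2, which was chosen after the data were seen, it was -0.01. Without 1 library, Ttr ran from -3.09 to 1.30, Enpp2 from -1.24 to 1.07 and Prlr from -0.52 to 1.43, and without both Ctrl 1 and Akk 2 Enpp2 was at 0.16. In blood, the median (-0.72) turned to 0.19 with libraries centred on their median and to 0.039 with quantile normalization, which moved the median of all blood genes from -0.87 to 0.04 and 0.03. Without 1 library it ran from -1.14 to -0.09. In the hippocampus, a fit without Ctrl 1 or without Akk 2 keeps 1 high library, so the rule largely set the sign of those medians. The causes of the other moves were not tested.

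The set held 55 genes at a fold of 1.5, 31 at a fold of 3, 51 at a floor of 0.25 FPKM and 38 at a floor of 1 FPKM. The median log2 ratio of Ctrl 1 over Akk 2 (0.70) ran from 0.59 to 0.76 under the other pseudocounts, the filter and centring. Members with a mean below 1 FPKM, 14 of the 46, rest on low values of unknown depth. The FPKM of 1 gene also depends on the fragments of all others, and these totals are not given in the sources used here.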
